A study of Mus musculus with 9 samples.

Results

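The 10 genes described here encode adhesion molecules that blood vessels and white blood cells use to hold on to each other. The vessel side comprised Selp (P-selectin), Sele (E-selectin), Icam1, Vcam1 and Icam2, and the leukocyte side comprised the integrin subunits Itgam, Itgb2, Itgal and Itga4 together with Selplg, which encodes the P-selectin ligand PSGL-1. Every probe set of the array whose single gene symbol was 1 of these 10 names was taken, whatever its signal, which gave 19 of the 45101 probe sets, for 10 of the 18193 genes named singly on the array. Of these, 9 belonged to the 5 vessel genes and 10 to the 5 leukocyte genes.

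Brain tissue came from adult male BALB/c mice that had received BV-HSVtk, a baculoviral vector whose name carries HSVtk, in both striata. MC+HS mice received vector cleaned by membrane chromatography followed by high-speed centrifugation, and HS mice received vector that had only been centrifuged at high speed. The mock group received Sf9 insect cell medium that held no baculovirus and had been put through the MC+HS purification, so HS and mock mice differed in both the vector and the way the injected material was purified. The vector dose per striatum was 100000000 particles in a volume of 10 µL, and the tissue surrounding the needle track was taken 2 days later from 3 mice per group, 1 array per mouse.

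A leukocyte leaves the blood in steps. Selectins on the endothelium catch sugar-bearing ligands such as PSGL-1 and let the cell roll, chemokines then switch its integrins to a binding state, and the integrins hold on to ICAM and VCAM molecules before the cell crosses the wall. Resting brain endothelium carries little P-selectin, E-selectin or VCAM-1, and inflammatory cytokines raise them. P-selectin protein is also stored ready-made in endothelial granules and in platelets, so its release needs no new transcript.

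Values below are log2(signal + 16) after each array's median was set to a common level, and differences and folds are on that scale, which understates the change of dim genes. A probe set was tested if it lay above the 40th percentile of its own array on at least 3 arrays, which kept 28257 probe sets, and a difference was called at an adjusted p under 0.05 in limma. Of the 19 probe sets, 12 were kept, for 9 genes. The 7 not kept were the only one of Sele, 1 of 3 for Selp, 1 of 2 for Itgal and 4 of 5 for Itga4, and all 7 were among the dimmest 40% on every mock array. Selp 1420558_at, Selp 1440173_x_at and Itgal 1435560_at were also among the dimmest 40% on every mock array and were kept through the vector arrays, so their being kept already reflects a difference between groups.

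HS replicate 1 was unlike the rest of the arrays. Its correlation with them had a median of 0.757, against 0.956 to 0.979 for the other 8, and its log2 signals had an SD of 1.32, against 1.61 to 1.70. Summed signals of 8 astrocyte markers were 38689 to 45110 in MC+HS, 10003 to 46621 in HS and 37175 to 39417 in mock, with the HS low coming from replicate 1, while all 15 endothelial and all 8 astrocyte markers on the array passed the filter. Among the 19 adhesion probe sets, HS replicate 1 was the lowest HS array in 9 and the highest in 9, and those 9 included all 7 that were not kept. The main values are therefore given with and without that array. In the fit that leaves it out, called the 8-array fit, the HS group had 2 mice, whose spread was estimated together with the other groups.

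The genes that rose after vector injection were on both sides of the contact. In MC+HS brains, 3 of the 19 probe sets were called higher than mock, for Selp and Icam1, where 0.556% of all kept probe sets were called higher. In HS brains, 4 of 19 were called higher, for Selp, Icam1 and Itgal, where 0.747% of all kept probe sets were. The called Selp and Itgal probe sets were kept through the vector arrays, so among these genes only the Icam1 call is free of that selection. No probe set of the 10 genes was called lower by limma in either comparison, and 0 had an unadjusted p under 0.05 in that direction. Over all kept probe sets, 0.0248% were called lower in MC+HS and 0.0283% in HS, and 1.76% and 3.25% were lower at an unadjusted p under 0.05. In the 8-array fit the counts were 7 of 19 for MC+HS, against 2.51% of all kept probe sets, and 9 of 19 for HS, against 2.97%. The genes added then were Vcam1, Icam2 and Itgb2 in both groups, and Itgal in MC+HS. Both comparisons use the same 3 mock arrays.

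Read by array, 12 of the 19 probe sets were higher on every MC+HS array than on any mock array, against 8.79% of the kept probe sets, and 7 of 19 were higher on every HS array than on any mock array, against 4.65%. The 12 in MC+HS were Selp and Vcam1 on all 3 probe sets, Icam1, Icam2, Itgb2, 1 probe set of Itgal and 2 of Itga4. The latter, 1456498_at and 1421194_at, and Selp 1449906_at were dim and not kept. The 7 in HS were Selp on all 3 probe sets, Icam1, Itgb2, 1 probe set of Vcam1 and 1 of Itgal. They were the same 7 that were higher on all 6 vector arrays. Without HS replicate 1 the HS count was 11 of 19, against 22.1% of the kept probe sets for 2 HS arrays, and the MC+HS count was again 12, against 8.79%.

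**Figure D1:**
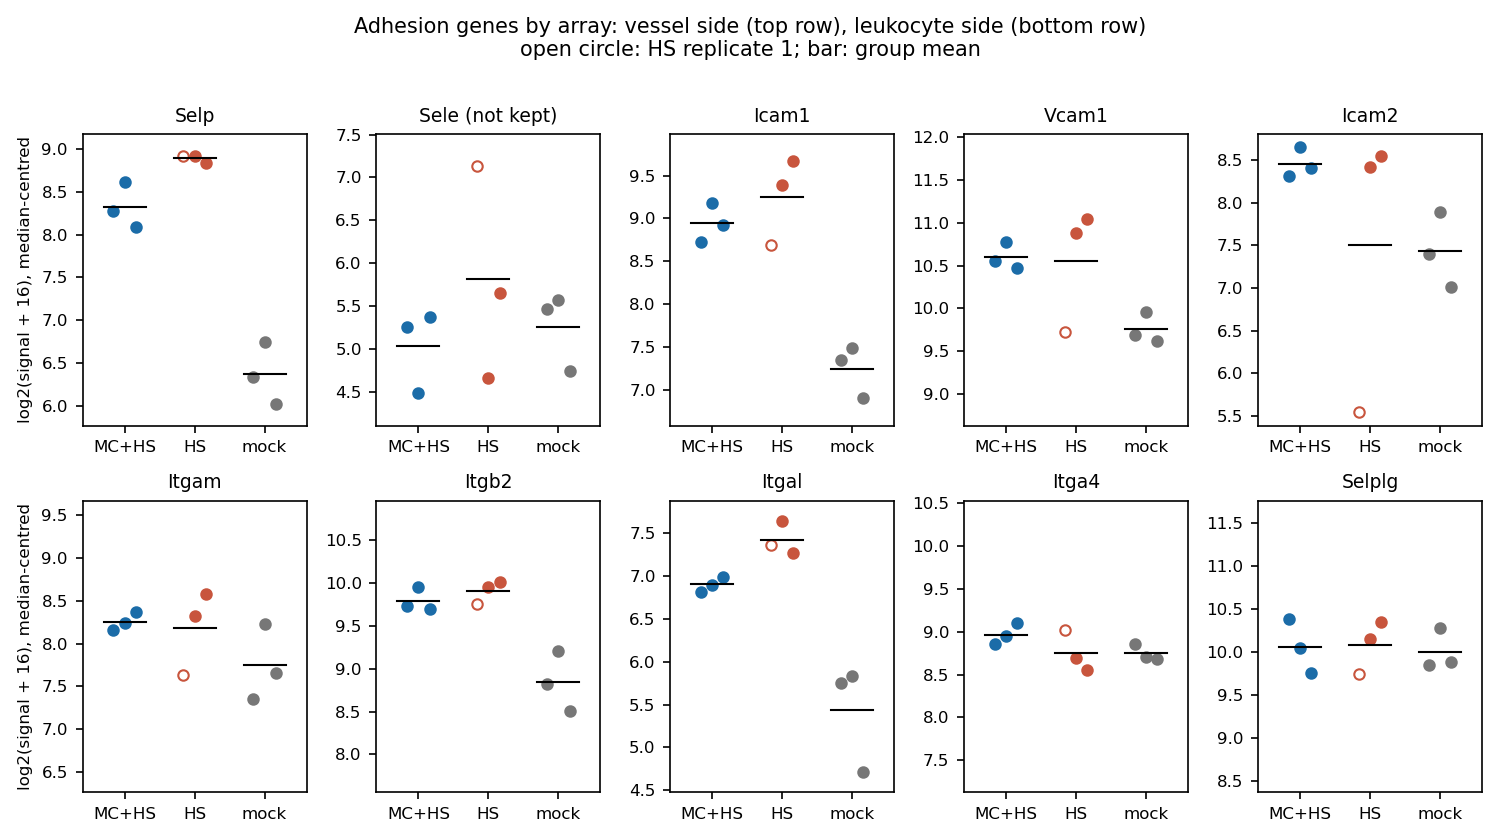
Level of each gene on each array as log2(signal + 16) after median centring, 1 panel per gene, with MC+HS, HS and mock from left to right; bars are group means, and the open circle is HS replicate 1. Genes with several probe sets are drawn by their brightest kept one. All vector arrays lie above all mock arrays for Selp, Icam1, Itgb2 and Itgal, and HS replicate 1 lies far below the other HS arrays for Icam2 and Vcam1.

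Selp, the selectin that slows leukocytes on the vessel wall, had the largest called rises of the 10 genes. Its brightest probe set, 1420558_at, read 8.27, 8.61 and 8.08 in MC+HS, 8.92, 8.92 and 8.84 in HS, and 6.34, 6.75 and 6.02 in mock. The lowest vector array thus lay 1.34 above the highest mock array. The rise in MC+HS brains was 1.95 ± 0.21 (SE), or 3.87-fold (limma adjusted p = 0.00649), and the rise in HS brains was 2.52 ± 0.21, or 5.74-fold (adjusted p = 0.00168). HS replicate 1 did not move this gene, whose HS difference was 2.51 without it. The HS call held under all 20 alternatives run, with an adjusted p of at most 0.0371, and the MC+HS call was lost without MC+HS replicate 2 (adjusted p = 0.0615), without mock replicate 1 (0.0567) and under quantile normalization (0.0674).

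The other 2 Selp probe sets ran the same way at lower levels. Probe set 1440173_x_at, whose suffix marks probes that can bind related transcripts, read 6.20, 7.16 and 6.67 in MC+HS, 6.49, 7.09 and 6.84 in HS, and 4.32, 4.42 and 4.87 in mock. Its rise was 2.14 ± 0.34 in MC+HS (limma adjusted p = 0.0326) and 2.27 ± 0.34 in HS (adjusted p = 0.0185), and without HS replicate 1 it was 2.14 ± 0.31 (0.00270) and 2.43 ± 0.35 (0.00213). Probe set 1449906_at was not kept and read 6.41, 6.15 and 5.95 in MC+HS, 6.64, 6.29 and 5.61 in HS, and 5.41, 5.20 and 4.27 in mock, so the groups did not overlap there either. When it was tested in a fit without the filter, its differences of 1.21 ± 0.37 for MC+HS and 1.22 ± 0.37 for HS were not called (limma adjusted p = 0.681 and 0.528).

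Platelets also carry Selp transcripts. Of the 5 platelet and megakaryocyte markers tested, with 9 on the array, 0 were called by limma in either comparison, with or without HS replicate 1, and 1 had an unadjusted p under 0.05, on the lower side. The summed signal of the 9 was 1197 to 1321 in MC+HS, 1127 to 1298 in HS and 1521 to 1657 in mock. Pf4, the platelet chemokine, read 7.28, 7.12 and 7.11 in MC+HS, 7.64, 7.11 and 7.12 in HS, and 7.43, 8.19 and 7.72 in mock.

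Endothelial adhesion genes are switched on by cytokines through transcription factors such as NF-kB, AP-1 and STAT proteins, and the sequences just before the start of Selp, Sele and Icam1 are shown for the letters these factors are known to bind. Sequences were available here for Selp, Sele, Icam1, Itgam and Itga4, 5 of the 10 genes. They are the 250 bases before the RefSeq start in GRCm38.p6, all on the plus strand, at chr1:164115014-164115263 for Selp, chr1:164047984-164048233 for Sele and chr9:21015690-21015939 for Icam1. Capitals mark matches to the motifs described after them.
Selp: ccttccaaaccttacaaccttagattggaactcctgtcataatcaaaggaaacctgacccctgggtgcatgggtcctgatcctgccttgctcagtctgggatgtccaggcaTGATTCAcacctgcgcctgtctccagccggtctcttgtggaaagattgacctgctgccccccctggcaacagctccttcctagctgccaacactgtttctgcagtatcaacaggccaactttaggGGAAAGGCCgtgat
Sele: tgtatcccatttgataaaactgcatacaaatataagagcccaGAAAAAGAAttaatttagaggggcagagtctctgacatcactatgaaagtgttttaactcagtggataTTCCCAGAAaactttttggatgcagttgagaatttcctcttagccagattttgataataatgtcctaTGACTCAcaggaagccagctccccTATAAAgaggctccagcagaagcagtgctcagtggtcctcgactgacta
Icam1: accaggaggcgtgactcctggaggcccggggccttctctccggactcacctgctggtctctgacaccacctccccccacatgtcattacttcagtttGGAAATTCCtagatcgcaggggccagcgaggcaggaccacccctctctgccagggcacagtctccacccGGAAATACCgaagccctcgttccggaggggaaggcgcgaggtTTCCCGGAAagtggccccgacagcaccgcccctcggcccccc

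The kappaB letters searched were GGNNTTTCC and GGAANTTCC, on both strands, and some matches serve both forms. Icam1 held GGAAATTCC 153 to 145 bases before its start, which matches both forms, and GGAAATACC 84 to 76 bases before it, which matches the first form on the minus strand. Selp held GGAAAGGCC 14 to 6 bases before its start, a match to the first form on the minus strand, and Sele held neither exact form. Sites that differ from both forms by a single base are missed, so this does not show that Sele lacks kappaB sites. Of 32851 windows of the same length, 5.45% held either form, 4.93% the first and 0.813% the second.

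Of the other motifs, AP-1 letters TGANTCA stood 139 to 133 bases before the start of Selp and 73 to 67 before that of Sele, and 6.75% of windows held them. The STAT letters TTCNNNGAA stood 140 to 132 bases before the start of Sele and 42 to 34 before that of Icam1 (7.02% of windows). Sele also held the interferon response letters GAAANNGAA (7.13% of windows) and a TATAAA box 49 to 44 bases before its start (12.4%). The windows of Itgam, at chr7:128062390-128062639, and of Itga4, at chr2:79255176-79255425, held none of these motifs, nor GAGGAAGT, the letters bound by the myeloid factor PU.1, which 2.44% of windows held. A match of letters describes the sequence and does not show binding, and the lack of a match does not show the lack of a site.

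Icam1, the ligand of the beta-2 integrins, was the other vessel gene called in both groups. It read 8.73, 9.19 and 8.93 in MC+HS, 8.69, 9.39 and 9.67 in HS, and 7.35, 7.49 and 6.90 in mock, with no vector array below 8.69. The rise was 1.70 ± 0.27 in MC+HS, or 3.25-fold (limma adjusted p = 0.0336), and 2.00 ± 0.27 in HS, or 4.0-fold (adjusted p = 0.0120). Without HS replicate 1, the lowest of the HS arrays, the rise in HS was 2.28 ± 0.19 (adjusted p = 8.07e-05). The call also depended on other arrays and settings. For HS it was lost without HS replicate 2 (adjusted p = 0.0657) or 3 (0.0554), without mock replicate 1 (0.0652) or 3 (0.0707), and in a fit of only the 6 arrays compared (0.105). For MC+HS it was lost without MC+HS replicate 1 (0.112), 2 (0.212) or 3 (0.173), without mock replicate 1 (0.151), 2 (0.0534) or 3 (0.172), and without HS replicate 2 (0.0634). It was lost too in a fit without the filter (0.0575), with the replicate number as a block (0.0644) and without centring (0.151). The difference itself stayed between 1.53 and 1.82 for MC+HS and between 1.79 and 2.28 for HS when single arrays were left out.

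Vcam1, the ligand of the alpha-4 integrin, was not called in the main fit and gained a call in 3 of 20 alternatives in each vector group. Leaving out HS replicate 1 was among them. Probe set 1448162_at read 10.55, 10.77 and 10.48 in MC+HS, 9.73, 10.88 and 11.05 in HS, and 9.69, 9.96 and 9.62 in mock. All MC+HS arrays were above all mock arrays, while HS replicate 1 lay among the mock arrays. With all 9 arrays the differences were 0.84 ± 0.35 for MC+HS (limma adjusted p = 0.915) and 0.80 ± 0.35 for HS (adjusted p = 0.635), and neither was called. In the 8-array fit they were 0.84 ± 0.12 (adjusted p = 0.00226) and 1.21 ± 0.13 (adjusted p = 0.000429), which are 1.79-fold and 2.31-fold rises.

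The other 2 Vcam1 probe sets gave smaller differences. Probe set 1415989_at read 8.03, 8.28 and 8.01 in MC+HS, 7.81, 8.65 and 8.63 in HS, and 7.65, 7.79 and 7.76 in mock. Probe set 1451314_a_at read 7.66, 7.59 and 7.75 in MC+HS, 6.24, 7.64 and 8.19 in HS, and 6.97, 7.29 and 6.98 in mock. On both, every MC+HS array was above every mock array. On the first of them HS replicate 1 was above the highest mock array too, by 0.02. With all 9 arrays neither was called by limma, the first at 0.37 ± 0.23 in MC+HS (adjusted p = 0.9999) and 0.63 ± 0.23 in HS (0.560), the second at 0.59 ± 0.41 (0.9999) and 0.28 ± 0.41 (0.747). On the 8 arrays without HS replicate 1, both were called in HS, at 0.91 ± 0.13 (limma adjusted p = 0.00224) and 0.84 ± 0.19 (0.0373), and neither in MC+HS, at 0.37 ± 0.12 (0.145) and 0.59 ± 0.17 (0.104).

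Icam2, which resting endothelium carries at all times and which platelets and some leukocytes share, had the widest range over the HS arrays among the 12 kept probe sets. It read 8.31, 8.65 and 8.40 in MC+HS, 5.54, 8.41 and 8.55 in HS, and 7.40, 7.89 and 7.01 in mock. HS replicate 1 lay below every mock array, and the other 5 vector arrays lay above them. With all 9 arrays the differences were 1.02 ± 0.69 for MC+HS (limma adjusted p = 0.9999) and 0.07 ± 0.69 for HS (adjusted p = 0.963). In the 8-array fit they were 1.02 ± 0.20 (adjusted p = 0.0163) and 1.05 ± 0.22 (adjusted p = 0.0255), or 2.03-fold and 2.07-fold.

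Sele, the selectin made by cytokine-activated endothelium, gave no called difference. Its only probe set was dim throughout and read 5.25, 4.48 and 5.38 in MC+HS, 7.13, 4.66 and 5.65 in HS, and 5.47, 5.57 and 4.74 in mock. The groups overlapped, and the only high array was HS replicate 1. In a fit without the filter the differences were -0.22 ± 0.58 for MC+HS and 0.55 ± 0.58 for HS (limma adjusted p = 1 and 0.762). At so dim a signal these values set no bound on a rise.

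**Figure D2:**
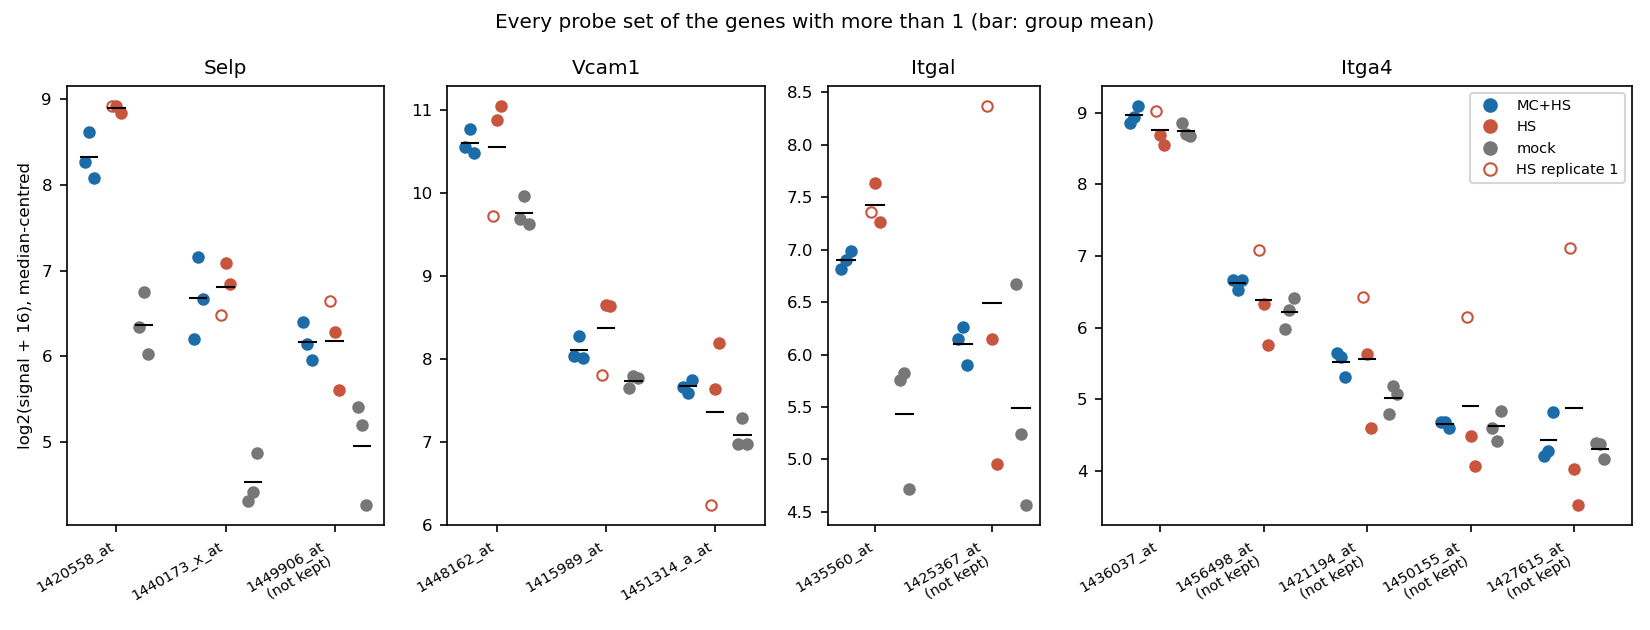
Every probe set of the 4 genes with more than 1, as log2(signal + 16) after median centring on each array; MC+HS, HS and mock stand left to right within each probe set, bars are group means, and the open circle is HS replicate 1. The 3 Selp probe sets separate the vector arrays from the mock arrays, and HS replicate 1 is the highest array on each Itga4 probe set that was not kept.

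On the leukocyte side, Itgal and Itgb2, which together form the integrin LFA-1 that grips ICAM molecules, had the largest differences. Itgal 1435560_at read 6.81, 6.90 and 6.99 in MC+HS, 7.36, 7.64 and 7.27 in HS, and 5.75, 5.83 and 4.72 in mock. All 6 vector arrays were above the mock arrays, and all HS arrays were above all MC+HS arrays. The difference was 1.47 ± 0.30 in MC+HS (limma adjusted p = 0.0977, not called) and 1.99 ± 0.30 in HS, a 3.97-fold rise (adjusted p = 0.0209). With HS replicate 1 left out both were called, at 1.47 ± 0.29 (adjusted p = 0.0201) and 2.02 ± 0.33 (adjusted p = 0.00519). The HS call was lost without HS replicate 2 (0.120) or 3 (0.0938), without MC+HS replicate 1 (0.0575), 2 (0.0597) or 3 (0.0597), and without mock replicate 1 (0.0597). It was also lost with a pseudocount of 1 (0.0640) and in a fit of only the 6 arrays compared (0.184), and mock replicate 3, at a deposited signal of 8.94, was the dimmest of the 9 readings. The second Itgal probe set, 1425367_at, was not kept and ranged from 5.90 to 6.26 in MC+HS, from 4.96 to 8.37 in HS and from 4.57 to 6.68 in mock, so it did not separate the groups.

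Itgb2, the beta-2 chain shared by LFA-1 and Mac-1, read 9.73, 9.95 and 9.69 in MC+HS, 9.76, 9.95 and 10.01 in HS, and 8.82, 9.21 and 8.51 in mock. The vector arrays lay at least 0.48 above the highest mock array. With all 9 arrays the differences of 0.95 ± 0.22 for MC+HS and 1.06 ± 0.22 for HS were not called (limma adjusted p = 0.169 and 0.0899). In the 8-array fit they were 0.95 ± 0.16 (adjusted p = 0.00658), or 1.93-fold, and 1.14 ± 0.18 (adjusted p = 0.00384), or 2.20-fold.

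Itgam, the alpha chain of Mac-1 on myeloid cells and microglia, differed less. It read 8.15, 8.24 and 8.37 in MC+HS, 7.63, 8.33 and 8.58 in HS, and 7.35, 8.23 and 7.66 in mock. Mock replicate 2 reached into the range of both vector groups. Neither 0.50 ± 0.28 in MC+HS nor 0.43 ± 0.28 in HS was called (limma adjusted p = 0.9999 and 0.635), and without HS replicate 1 the adjusted p was 0.258 and 0.144.

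Itga4, the alpha-4 chain that binds VCAM-1 as part of VLA-4, showed no called difference on the probe set that was kept. Probe set 1436037_at read 8.85, 8.94 and 9.10 in MC+HS, 9.02, 8.69 and 8.56 in HS, and 8.85, 8.71 and 8.68 in mock. The 95% interval of the difference ran from -0.16 to 0.60 in MC+HS and from -0.37 to 0.39 in HS (limma adjusted p = 0.9999 and 0.979). The intervals without HS replicate 1 were -0.02 to 0.46 and -0.39 to 0.14 (adjusted p = 0.410 and 0.713). The other 4 Itga4 probe sets were too dim to be kept. Of these, 1456498_at and 1421194_at were higher on every MC+HS array than on any mock array, while HS and mock overlapped.

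Selplg, which rolling leukocytes present to P-selectin and microglia also express, read 10.38, 10.05 and 9.76 in MC+HS, 9.75, 10.15 and 10.35 in HS, and 9.85, 10.28 and 9.88 in mock. The 3 groups covered the same range. The 95% interval was -0.54 to 0.65 for MC+HS and -0.52 to 0.67 for HS (limma adjusted p = 0.9999 and 0.895), and without HS replicate 1 it was -0.31 to 0.42 and -0.16 to 0.65 (0.925 and 0.617).

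**Figure D3:**
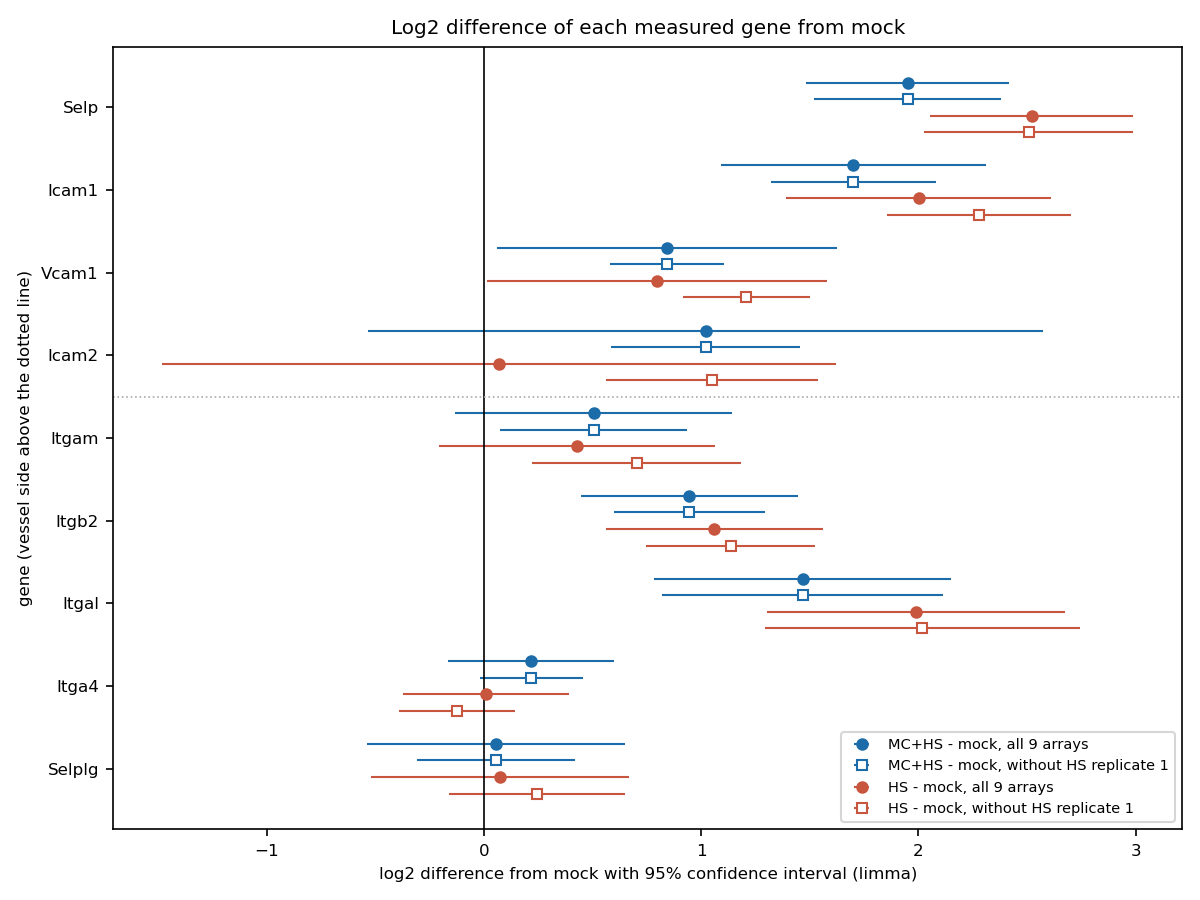
Log2 difference of each kept gene from mock with its 95% confidence interval from limma, vessel genes above the dotted line and leukocyte genes below it; for each gene MC+HS stands above HS, filled circles use all 9 arrays and open squares leave out HS replicate 1. Intervals of Vcam1 and Icam2 narrow without that array, and those of Itga4 and Selplg include 0 throughout.

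Taken by gene, the median difference of the 4 vessel genes tested was 1.36 in MC+HS and 1.4 in HS, and that of the 5 leukocyte genes was 0.50 in MC+HS and 0.43 in HS. Over all kept probe sets the median was -0.02 in MC+HS and -0.21 in HS. Without HS replicate 1 the vessel median was 1.36 in MC+HS and 1.74 in HS, the leukocyte median 0.50 and 0.70, and the overall median -0.02 and 0.03. In that fit 4 of 4 vessel genes and 2 of 5 leukocyte genes were called higher in each vector group. Over all kept probe sets 2.51% were called higher in MC+HS and 2.97% in HS. The medians rest on genes that passed the filter, which left out Sele and which Selp and Itgal passed through the vector arrays.

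Within each array, the vessel median minus the leukocyte median, each gene taken relative to its mock mean, was 0.77, 1.09 and 0.70 in MC+HS, 0.43, 1.06 and 1.03 in HS, and -0.01, -0.05 and -0.22 in mock. All 6 vector arrays were above the 3 mock arrays, with HS replicate 1 the nearest to them. Taken by the mean over genes instead of the median, HS replicate 1 was at -0.03, within the mock range of -0.05 to 0.02, and the other 5 vector arrays were at 0.63 to 1.03. The difference of the 2 group medians was 0.86 for MC+HS and 0.97 for HS, against a within-group SD of 0.245 over arrays. It was 0.52 and 0.37 when genes were taken without the filter, which brings in Sele, and the same when each kept probe set was counted on its own. These medians describe 9 chosen genes and carry no test.

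No difference between the vector groups passed the test on these genes. Between MC+HS and HS no probe set of the 10 genes was called, and neither was any of the 28257 kept (0%). At an unadjusted p under 0.05 limma gave 847 of the 28257, or 3%, and 1 of the 12 kept here. The nearest was Selp 1420558_at, whose 3 MC+HS arrays were all below the 3 HS arrays, with a difference of -0.57 ± 0.21 and a 95% interval of -1.04 to -0.10 (adjusted p = 0.728). Itgal was also lower on every MC+HS array than on any HS array, by -0.52 ± 0.30 (95% interval -1.21 to 0.16, adjusted p = 0.728). For Icam1 the difference was -0.30 ± 0.27, with an interval of -0.91 to 0.31. Over the 19 probe sets, 2 were lower on every MC+HS array than on any HS array, against 2.88% of the kept probe sets. The intervals leave room for differences of the size of 1 log2 unit in several genes, Icam2 most of all (-0.60 to 2.50).

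In the 8-array fit, 8 of the 9 genes had a lower mean in MC+HS than in HS. Over all kept probe sets, 37.1% had a higher mean in MC+HS, so a lower mean was common. None of the 9 genes was called, where 1 of 27973 kept probe sets was (0.00357%). Icam1 then differed by -0.58 ± 0.19 (limma adjusted p = 0.552), Selp by -0.56 ± 0.22 (0.604) and Vcam1 by -0.37 ± 0.13 (0.571). Itga4 was the gene with a higher mean in MC+HS, by 0.34 ± 0.12 (0.566). The median over all kept probe sets was -0.05 in that fit. At an unadjusted p under 0.05, 5 of the 12 kept here differed, 4 lower and 1 higher in MC+HS, against 7.65% of all kept probe sets in either direction. Of the 19 probe sets, 6 were lower on every MC+HS array than on the 2 HS arrays, against 16.8% of the kept probe sets. Another 4, all of Itga4 and only 1 of them kept, were higher, against 7.52%.

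Other genes of the same pathway were counted in 5 groups. Over all kept probe sets, 3.14% in MC+HS and 3.42% in HS were higher than mock at an unadjusted p under 0.05. With all 9 arrays 0.556% and 0.747% were called higher by limma, and in the 8-array fit 2.51% and 2.97%. These shares stand beside the counts of all 5 groups. Of 9 selectins and selectin carriers tested, 0 were called by limma with all 9 arrays, where 3 in MC+HS and 2 in HS were higher at an unadjusted p under 0.05. On the 8 arrays without HS replicate 1, 2 were called in MC+HS and 3 in HS. They were Cd44, a hyaluronan receptor and selectin ligand, at 1.24 in MC+HS (adjusted p = 0.0115) and 1.45 in HS (0.00834), Podxl, a sialomucin, at 0.70 (0.0335) and 0.85 (0.0215), and Cd34, called in HS at 0.54 (0.0354).

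Of 13 junction and immunoglobulin-like molecules used in crossing the wall, 0 were called by limma in MC+HS, with 6 higher at an unadjusted p under 0.05, and 1 was called in HS. That gene was Nectin2, a junction adhesion molecule, at 0.91 in each group (adjusted p = 0.0535 in MC+HS and 0.0459 in HS). In the 8-array fit, 4 were called in each group. They were Nectin2, the endothelial junction molecules Esam and Cdh5, and Ackr1, a chemokine-binding receptor of venules, at 0.57 in MC+HS (adjusted p = 0.0125) and 0.92 in HS (0.00101).

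Of 14 other integrin subunits tested, 0 were called by limma in MC+HS, with 2 higher at an unadjusted p under 0.05, and 1 was called in HS, the collagen receptor chain Itga1, at 0.88 (adjusted p = 0.111) and 1.11 (0.0357). Itga6, a laminin receptor chain, was added in each group without HS replicate 1. Of 13 genes that activate and anchor integrins, 0 were called by limma with all 9 arrays, with 1 in MC+HS and 2 in HS higher at an unadjusted p under 0.05. With HS replicate 1 left out Fermt3, the kindlin of blood cells, was called at 1.05 in MC+HS (adjusted p = 0.0212) and 1.06 in HS (0.0350), with Rap1b added in HS. Of 13 inducers and NF-kB feedback genes, 2 were called by limma in each group with all 9 arrays. They were Socs3, a cytokine feedback inhibitor, at 2.20 in MC+HS (adjusted p = 0.0260) and 2.10 in HS (0.0253), and Bcl3, an NF-kB partner, at 1.33 (0.0336) and 1.44 (0.0177). The 8-array fit gave 7 in MC+HS and 8 in HS. With all 9 arrays the inducing cytokines Tnf, Il1a, Il1b and Ifng were not among the calls. Tnf, Il1a and Ifng were among the dimmest 40% on every mock array. Itga1 and Bcl3 were also among the dimmest 40% on every mock array and kept through the vector arrays.

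Cell type markers moved along with these genes, and in whole tissue fewer cells of a type and less RNA per cell cannot be told apart. Endothelial markers had a median difference of 0.46 in MC+HS and 0.24 in HS, with 0 of 15 called by limma in either and 6 in MC+HS and 2 in HS higher at an unadjusted p under 0.05, against 3.14% and 3.42% of all kept probe sets. Without HS replicate 1, 3 of 15 were called in each group, against 2.51% of all kept probe sets in MC+HS and 2.97% in HS. Cldn5, the tight junction protein of brain endothelium, then rose by 0.96 in MC+HS (limma adjusted p = 0.000536) and 1.13 in HS (0.000346). The summed signal of the endothelial markers was 15650 to 16988 in MC+HS, 10023 to 18802 in HS and 11430 to 12981 in mock. Selp and Icam1 rose more than any endothelial marker tested in each vector group, a ranking that says nothing on which cells made the transcripts. Selp was kept through the vector arrays, so its place in the ranking already reflects a difference between groups. How far a change in the amount of endothelium, or expression in other cells, contributes to the vessel-side values was not tested.

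Some markers of blood-borne cells rose as well. Over all kept probe sets, 0.556% in MC+HS and 0.747% in HS were called higher. Without HS replicate 1 these shares were 2.51% and 2.97%. Of 8 monocyte markers tested, 2 were called in MC+HS and 3 in HS (5 and 5 without HS replicate 1), with Chil3, a lectin of inflammatory monocytes, at 2.97 (adjusted p = 0.00649) and 3.14 (0.00324). Of 9 NK and cytotoxic cell markers, 3 were called in each group (4 without HS replicate 1), with the granzyme Gzma at 2.77 (0.00782) and 3.49 (0.00220). The difference was positive for 8 of the 9 in each group. Prf1, which encodes perforin, went the other way, at 7.37, 7.56 and 7.49 in MC+HS, 5.92, 7.38 and 7.53 in HS, and 7.74, 7.63 and 7.69 in mock. Of 6 neutrophil markers tested, 1 was called in MC+HS and 2 in HS (3 and 3), with the calprotectin chain S100a9 at 1.47 (0.0454) and 2.18 (0.00696). Chil3, Gzma and S100a9 were, like Selp, among the dimmest 40% on every mock array and kept through the vector arrays. Of 3 T cell markers tested, 0 were called by limma in either group, with or without HS replicate 1, and 0 had an unadjusted p under 0.05.

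Of 10 pan-leukocyte and myeloid markers, 0 were called by limma with all 9 arrays, with 3 in MC+HS and 4 in HS higher at an unadjusted p under 0.05. Ptprc, the pan-leukocyte CD45, read 9.36, 9.75 and 9.51 in MC+HS, 8.90, 9.68 and 9.88 in HS, and 7.60, 8.37 and 7.29 in mock, a difference of 1.78 in MC+HS and 1.73 in HS (limma adjusted p = 0.0606 and 0.0603). It was called in each group in the 8-array fit, among 2 markers in MC+HS and 3 in HS. Over all kept probe sets the shares called higher in that fit were 2.51% and 2.97%. The summed signal of the 10 was 14284 to 15950 in MC+HS, 8275 to 17685 in HS and 9204 to 14688 in mock, so the highest mock array reached the vector range.

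Several microglial genes fell. Of 10 homeostatic microglia markers, 2 were called lower in MC+HS and 1 in HS, against 0.0248% and 0.0283% of all kept probe sets. Without HS replicate 1, 4 were called lower in each, against 0.833% of all kept probe sets in MC+HS and 0.357% in HS. Not all 10 fell. A positive difference was found for 3 in MC+HS and 2 in HS, or 3 and 4 without HS replicate 1. Tmem119, a marker of this list, read 10.35, 10.49 and 10.12 in MC+HS, 10.27, 10.32 and 10.58 in HS, and 10.08, 10.37 and 9.86 in mock. Gpr34, a microglial receptor, fell by 1.03 in MC+HS (limma adjusted p = 0.0425) and by 1.26 in HS (0.0125), and P2ry12, the microglial ADP receptor, fell by 1.0 in MC+HS (0.0351) and differed by -0.74 in HS (0.107). The summed signal of the list was 12783 to 15575 in MC+HS, 9964 to 15016 in HS and 14613 to 17280 in mock. Itgam, Itgb2 and Selplg are expressed by microglia as well as by blood leukocytes, and the part of either cell type in their values was not tested.

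**Figure D4:**
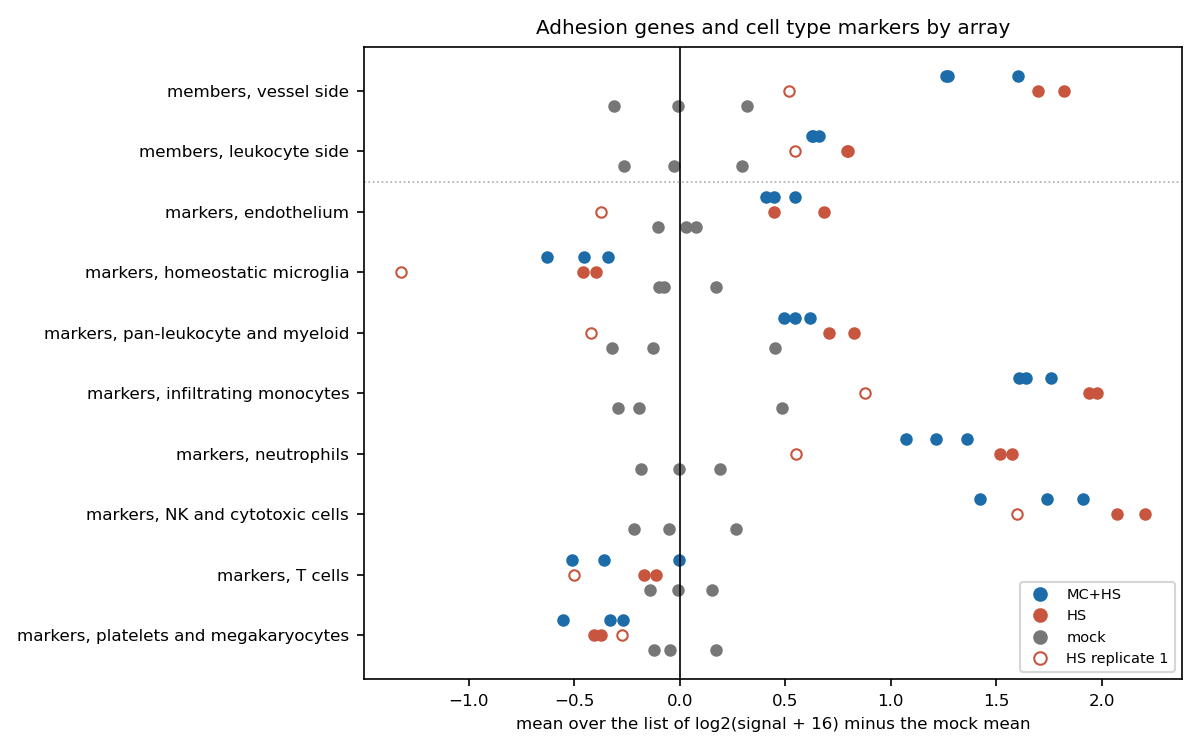
Mean over the genes of each list of log2(signal + 16) minus the gene's mock mean, 1 point per array, with the vessel and leukocyte sides above the dotted line and cell type marker lists below it; MC+HS stands above HS and HS above mock in each row, and the open circle is HS replicate 1. The vessel side, the leukocyte side and the monocyte, neutrophil and NK markers lie above 0 on all vector arrays, and HS replicate 1 lies below 0 for endothelium, microglia and pan-leukocyte markers.

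Among 13330 other genes, those whose levels followed Selp most closely over the 9 arrays were Ifitm6 (Pearson r = 0.988), Tpm4, Mmrn2, Ifih1 and Gbp2b. Selp, and Itgal below, were taken because they had the smallest p of their side in HS against mock. Itgb2 stood at rank 30 (r = 0.969), Itgal at rank 44 (r = 0.963) and Icam1 at rank 62 (r = 0.955). The other kept members followed Selp less closely. Vcam1 stood at rank 552 (r = 0.727), Itgam at 945 (0.570), Selplg at 2300 (0.208), Icam2 at 2325 (0.205) and Itga4 at 2395 (0.193). On the 8 arrays without HS replicate 1 the leading 5 were Gbp8 (r = 0.997), Themis2, Pdia4, Csf1 and Mmrn2, and Vcam1 stood at rank 8 (r = 0.990) and Icam1 at rank 12 (r = 0.989). Selplg was then at rank 4014 (r = 0.432) and Itga4 at rank 7349 (r = 0.058). Mmrn2 was in both sets of 5.

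For Itgal the leading 5 over 9 arrays were Tpm4 (r = 0.973), Il18bp, Zbp1, Lcp1 and Selp, and without HS replicate 1 they were Plscr2 (r = 0.989), Itgb3bp, Nkg7, Hsd3b7 and Tlr1, none of which was in the first set. The correlations describe 9 or 8 arrays that fall into vector and mock groups and share their normalization.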

How the data were processed

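The table analysed held 1 deposited intensity per probe set and array, linear in scale. The submitters' processing notes name GCOS 1.4.0.036 as the authors' software, and the summarising and scaling steps are not given here. No detection calls were used. Per the labels' protocols, RNA was extracted with Trizol and cleaned on a column, and the mice of a group are biological replicates.

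Intensities were turned into log2(signal + 16), arrays were centred on a common median, and 64 control probe sets were left out. The test was limma 3.58.1 (R 4.3.3, statmod 1.5.0) with an intensity trend, group as the only term and all 9 arrays in 1 fit. P-values were two-sided and adjusted by the Benjamini-Hochberg method across 28257 kept probe sets, or 27973 in the 8-array fit. Median intensity per array was between 147 and 264, and the 3 arrays per group limit the precision.

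Gene symbols came from the platform annotation, and all 19 matched a RefSeq gene table of GRCm38.p6 by Entrez identifier. A gene with several probe sets was stood for by its brightest kept one, and of each list up to 4 genes with the smallest p in a comparison could be named. The members, lists and motifs were chosen with earlier results of these data known. Same-numbered replicates were not treated as pairs, with correlations of their deviations from -0.168 to 0.287. In MC+HS against mock, replicates 1 and 3 were at 0.261 and 0.287, above every unlike-numbered pair there (-0.318 to 0.117). The fit was tested on simulated data. Alternatives were 2 other pseudocounts, other filters, quantile normalization, other priors, array weights, fewer arrays, a replicate block and, chosen after seeing the data, no centring.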

Additional observations from a re-analysis of the deposited data

How the results depend on the processing

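Counts of calls moved under several settings beside those named above. Probe sets called over the whole array numbered 164 in MC+HS against mock and 219 in HS against mock. With array quality weights, whose estimation stopped before reaching its tolerance, the counts were 2146 and 7776, and 6536 between MC+HS and HS, where 0 had been called. With only the 6 arrays compared they were 727 and 15, with a filter at the 60th percentile HS gave 136, and MC+HS gave 69 without centring. Leaving out 1 array at a time gave 10 to 934 in MC+HS, 67 to 930 in HS and 0 to 1 between them.

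Of the 19 probe sets, 3 were called in MC+HS and 4 in HS. The counts were 9 and 10 with array weights (5 between MC+HS and HS), 6 and 1 with 6 arrays, 1 in MC+HS with quantile normalization or without centring, 2 in HS with the 60th percentile filter, which removed Itgal, and 0 to 7 and 1 to 9 without single arrays. The highest counts came without HS replicate 1, and 0 in MC+HS came without MC+HS replicate 2 or mock replicate 1. The replicate block, on numbers that were not treated as pairs, gave 95 probe sets and 1 of the 19 in MC+HS. The vessel minus leukocyte median was 1.23 in HS with quantile normalization, 0.37 in HS and 0.52 in MC+HS with each kept probe set counted on its own or with genes taken without the filter, and 0.71 to 1.07 in MC+HS and 0.84 to 1.18 in HS without single arrays.

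Signs turned in differences that were never called in the fit of all 9 arrays. In HS against mock, Icam2 was -0.0315 with a pseudocount of 1 and -0.26 with quantile normalization (-0.45 to 1.05 without single arrays), Itga4 was -0.0033 and, with array weights, -0.0613 (-0.12 to 0.11), and Selplg ran from -0.0595 to 0.24. In MC+HS against mock, Selplg was -0.0840 with array weights (-0.10 to 0.21). Between MC+HS and HS, Vcam1 was -0.0035 with a pseudocount of 64, -0.32 with quantile normalization, -0.25 with weights and -0.23 without centring (-0.37 to 0.30), Itga4 -0.13 with quantile normalization and -0.0667 without centring, Itgam -0.0523 with weights and -0.20 without centring (-0.20 to 0.28), Selplg 0.000102 with a pseudocount of 1 (-0.19 to 0.13) and Icam2 -0.0293 to 1.47. Quantile normalization moved the median of all probe sets in HS from mock to -0.06, and no centring to 0.09, against -0.21. Of 537 gene values under alternatives, 456 kept their direction and side of the threshold, 32 turned, 23 gained a call and 26 lost it. The causes were not tested.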

Other observations

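Some relatives that lie beside these genes on the chromosome are described here, chosen after their values were seen. Icam4, the neighbour of Icam1 and an adhesion molecule of red blood cells, read 7.0, 6.99 and 6.90 in MC+HS, 7.06, 6.77 and 6.43 in HS, and 7.03, 6.94 and 6.82 in mock, so its groups overlapped where those of Icam1 did not. Itgax, the neighbour of Itgam, which encodes the integrin alpha chain CD11c, read 7.44, 7.46 and 7.50 in MC+HS, 6.65, 6.93 and 7.26 in HS, and 6.89, 7.52 and 6.70 in mock, with overlap, as for Itgam. Icam5, the neuronal member of the ICAM family, ran from 11.05 to 11.35 in MC+HS and from 11.21 to 11.29 in mock, and read 8.80, 11.01 and 11.21 in HS, with the low value again on HS replicate 1.

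Among other cells that line or wrap vessels, 0 of 8 pericyte and smooth muscle markers were called by limma in either vector group, with 1 in MC+HS at an unadjusted p under 0.05. Of 8 astrocyte markers, 0 were called with all 9 arrays, and 0 had an unadjusted p under 0.05. Without HS replicate 1, 2 of the 8 were called higher in MC+HS and 3 in HS, against 2.51% and 2.97% of all kept probe sets. Gfap, the filament protein of reactive astrocytes, rose by 1.28 in MC+HS (limma adjusted p = 0.0146) and 1.47 in HS (0.0120), and Aldh1l1 by 0.61 (0.0322) and 0.72 (0.0230). Aqp4 was the third called in HS, at 0.55 (0.0436). The difference was positive for 6 of the 8 in MC+HS and 7 in HS, and Slc1a2 was at -0.21 in MC+HS (0.271).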
